A study of Mus musculus with 6 samples.

Results

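The mitochondrial ribosomal protein genes, whose products build the ribosome inside mitochondria, were followed in primary acinar cells of the mouse pancreas. They were taken as every gene symbol of the deposited tables that begins with Mrpl or Mrps followed by a digit, without pseudogenes. This gave 77 of 23237 symbols, 48 named for the large subunit (Mrpl) and 29 for the small subunit (Mrps). All 77 had enough counts to be tested, so no member was lost to the filter on low counts. The samples were 3 libraries of ERRgamma -/- genotype, which the series describes as a conditional knock-out (cKO), and 3 wild-type control libraries (CON). Both groups were acinar cells of strain C57BL/6J kept in Waymouth's medium with serum, antibiotics, a trypsin inhibitor and epidermal growth factor. ERRgamma, encoded by Esrrg, is an orphan nuclear receptor. The sources used here do not give the method of deletion, which part of the gene was removed, how long the cells were cultured, how pure they were, or the sex and age of the mice. They also leave unsaid whether each library of a group came from its own animal. The p-values therefore reflect only how much these libraries varied, which could be technical variation.

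The mitochondrial ribosome translates the few mRNAs of the mitochondrial genome, which encode core subunits of the respiratory chain and the ATP synthase. Its RNAs come from the mitochondrial genome, while all its proteins are encoded in the nucleus, made in the cytosol and imported. Some of these proteins have a counterpart in the bacterial ribosome and others are specific to mitochondria. Estrogen-related receptors act with PGC-1 coactivators on nuclear genes of energy metabolism, and acinar cells use much ATP to make and export digestive enzymes.

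Esrrg itself, on chromosome 1 at chr1:187608791-188214885 (GRCm38), had 0, 9 and 1 counts in the cKO libraries and 0 in each CON library, and was too low to be tested (a count of 0 allows up to 3). A 3' tag that lies outside the deleted part would not check the deletion, so the counts of Esrrg do not check the labels. Libraries held 15.17 M to 16.96 M counts in cKO and 23.01 M to 25.18 M counts in CON (M, mega). Digestive enzyme genes, which define acinar cells, took 20.1%, 52.5% and 27.1% of the counts in the cKO libraries and 79.9% to 81.9% in the CON libraries. The first principal component of all tested genes held 69.0% of the variance, with cKO libraries at 99.1, 56.4 and 86.4 and CON libraries between −84.1 and −78.0. The second cKO library thus stood nearer to CON than the other 2 cKO libraries on both measures. Summed markers of fibroblasts and stellate cells stood at 3600 to 5131 CPM (counts per M of TMM-scaled library size) in cKO and 731 to 829 CPM in CON, and 10 of 12 such genes were higher in cKO. Summed macrophage and leukocyte markers stood at 226 to 473 CPM in cKO and 72.7 to 91.9 CPM in CON, with 9 of 10 tested genes higher in cKO. Endothelial markers instead summed to 23.2 to 36.2 CPM in cKO and 48.1 to 50.3 CPM in CON. Duct markers summed to 104 to 118 CPM in cKO and 198 to 238 CPM in CON. Of 8 endothelial genes 3 were lower and 2 higher, and of 6 tested duct genes 3 were lower and 2 higher. Among all tested rows 20.7% were lower and 24% higher. All these marker sums and calls are on the TMM scale, with the test described below. On library totals 8 endothelial and 4 duct genes were higher and 0 lower, where 96.4% of all tested rows were higher. Islet marker sums overlapped, at 409 to 843 CPM in cKO and 589 to 947 CPM in CON. In bulk RNA, fewer cells of a type and less RNA per cell cannot be told apart. The part of cell make-up in the results below was not tested.

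The promoters of 6 members are printed first, because these genes mark the ends of the range seen below. Mrpl53, Mrps21, Mrpl57 and Mrpl30 had the lowest cKO levels relative to CON among members that passed the test. Mrpl33 and Mrps9 were the 2 members whose cKO libraries all lay above all CON libraries. Each sequence is the RefSeq window from 250 bases before to 50 bases after the annotated RefSeq start, written 5′ to 3′ on the gene's strand, on build GRCm38.p6. They are Mrpl53 (chr6:83108858-83109157, plus strand), Mrps21 (chr3:95871465-95871764, minus strand), Mrpl57 (chr14:57825989-57826288, plus strand), Mrpl30 (chr1:37890227-37890526, plus strand), Mrpl33 (chr5:31613701-31614000, plus strand) and Mrps9 (chr1:42850983-42851282, plus strand). Capitals mark exact matches, on either strand, to CCGGAAG (a core recognised by ETS factors such as GABP) and to the palindromic element of NRF1 (GCGC, then any base, then TGCGC).
Mrpl53: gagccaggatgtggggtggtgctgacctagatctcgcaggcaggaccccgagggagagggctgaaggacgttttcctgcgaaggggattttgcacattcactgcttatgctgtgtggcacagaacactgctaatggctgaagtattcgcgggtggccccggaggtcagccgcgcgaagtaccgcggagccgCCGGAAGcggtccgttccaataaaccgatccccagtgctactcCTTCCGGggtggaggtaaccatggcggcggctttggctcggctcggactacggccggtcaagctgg
Mrps21: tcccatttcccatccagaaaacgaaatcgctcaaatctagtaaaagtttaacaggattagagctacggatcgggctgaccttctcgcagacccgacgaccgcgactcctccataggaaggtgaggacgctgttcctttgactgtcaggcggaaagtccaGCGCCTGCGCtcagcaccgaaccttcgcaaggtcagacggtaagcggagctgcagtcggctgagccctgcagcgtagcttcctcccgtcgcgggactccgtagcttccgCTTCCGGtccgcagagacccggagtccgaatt
Mrpl57: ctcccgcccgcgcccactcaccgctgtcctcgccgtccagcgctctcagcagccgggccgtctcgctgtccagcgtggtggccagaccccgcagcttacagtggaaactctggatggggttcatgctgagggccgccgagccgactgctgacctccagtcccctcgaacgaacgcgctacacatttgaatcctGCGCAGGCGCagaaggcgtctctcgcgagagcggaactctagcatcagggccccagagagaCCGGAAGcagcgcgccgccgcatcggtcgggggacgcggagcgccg
Mrpl30: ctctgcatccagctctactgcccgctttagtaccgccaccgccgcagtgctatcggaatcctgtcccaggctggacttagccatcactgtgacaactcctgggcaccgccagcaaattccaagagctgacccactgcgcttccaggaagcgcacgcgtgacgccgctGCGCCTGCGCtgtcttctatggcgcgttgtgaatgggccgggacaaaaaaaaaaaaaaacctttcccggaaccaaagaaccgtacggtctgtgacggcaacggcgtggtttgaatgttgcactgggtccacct
Mrpl33: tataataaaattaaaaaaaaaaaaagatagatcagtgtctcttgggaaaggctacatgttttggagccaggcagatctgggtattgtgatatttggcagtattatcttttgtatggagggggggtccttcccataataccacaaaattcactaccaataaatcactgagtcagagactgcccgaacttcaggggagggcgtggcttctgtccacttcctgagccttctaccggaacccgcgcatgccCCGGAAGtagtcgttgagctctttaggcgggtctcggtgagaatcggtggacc
Mrps9: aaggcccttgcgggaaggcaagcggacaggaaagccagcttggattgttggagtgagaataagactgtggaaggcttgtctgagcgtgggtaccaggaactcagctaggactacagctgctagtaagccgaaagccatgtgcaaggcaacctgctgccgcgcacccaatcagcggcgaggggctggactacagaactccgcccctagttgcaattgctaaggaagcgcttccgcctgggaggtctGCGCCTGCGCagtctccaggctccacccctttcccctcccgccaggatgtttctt

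Of the 77 members, 68 had a promoter in the RefSeq table. Mrpl13, Mrpl15, Mrpl19, Mrpl38, Mrpl4, Mrpl54, Mrps28, Mrps34 and Mrps35 were not matched. The ETS core CCGGAAG was found in 25 of the 68 promoters (36.8%), against 19.0% of 9643 tested genes and 9.93% of all 27025 genes with a promoter in the table. The NRF1 element was found in 13 (19.1%), against 11% of tested genes and 5.19% of all genes. The YY1 element AAGATGGCG was found in 8 (11.8%), against 3.48% of tested genes and 1.64% of all genes. The estrogen-related receptor element TCAAGGTCA was in none of the 68 windows, and was in 0.332% of tested genes and 0.466% of all genes. The looser form TNAAGGTCA was likewise in none of the 68, and in 0.892% of tested genes and 1.43% of all genes. General promoter elements were no more common in the members than in tested genes. The SP1 box GGGCGG was in 50% of the 68 and 67.7% of tested genes, the CCAAT box in 39.7% and 42.6%, and the TATA box TATAAA in 7.35% and 9.30%. The looser ERR form contains the stricter one, and all motifs were searched on both strands. These matches describe letters in a window of 300 bases and say nothing of binding.

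The log2 fold change (cKO over CON, TMM scale) had a median over members of −0.48 with the ETS core and −0.60 without it. Lower in cKO by the test described below were 10 of the 25 members with it and 23 of the others among the 68. With the NRF1 element the median was −0.65, and without it −0.53, with 7 of 13 and 26 of the others lower. With the YY1 element the median was −0.69, and without it −0.54, with 5 of 8 and 28 of the others lower. The groups without an element were the larger ones, and 20.7% of all tested rows were lower. Both Mrps21 and Mrpl57, far below CON in cKO, and Mrps9, which lay above it, carried an NRF1 match, and both Mrpl53 and Mrpl33 carried the ETS core. These differences between medians were not tested.

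Across the members, 37 of 77 were lower in cKO and 0 were higher on the TMM scale, while on library totals all 77 were higher. The test was that of edgeR with an adjusted p under 0.05, and the TMM scale (trimmed mean of M-values) sets the bulk of genes to about no change. Among all 13132 tested rows 20.7% were lower and 24% higher on the TMM scale. Whether called or not, 66 members had a negative log2 fold change and 11 a positive one. The median was −0.56, with quartiles of −0.82 and −0.26, and the median of all tested rows was 0.10. Called lower by the test and also at least 2-fold lower were 14 of the 77 members, against 13.4% of all tested rows. The 3 cKO libraries all lay below the 3 CON libraries for 43 members (25.4% of all tested rows) and all above them for 2 (30.7% of all tested rows). Of the members, 18 were lower in the fit on all libraries and in each of the 6 fits that left out 1 library. The count of members lower in cKO was 23 without the first cKO library, 39 without the second and 20 without the third.

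**Figure D1:**
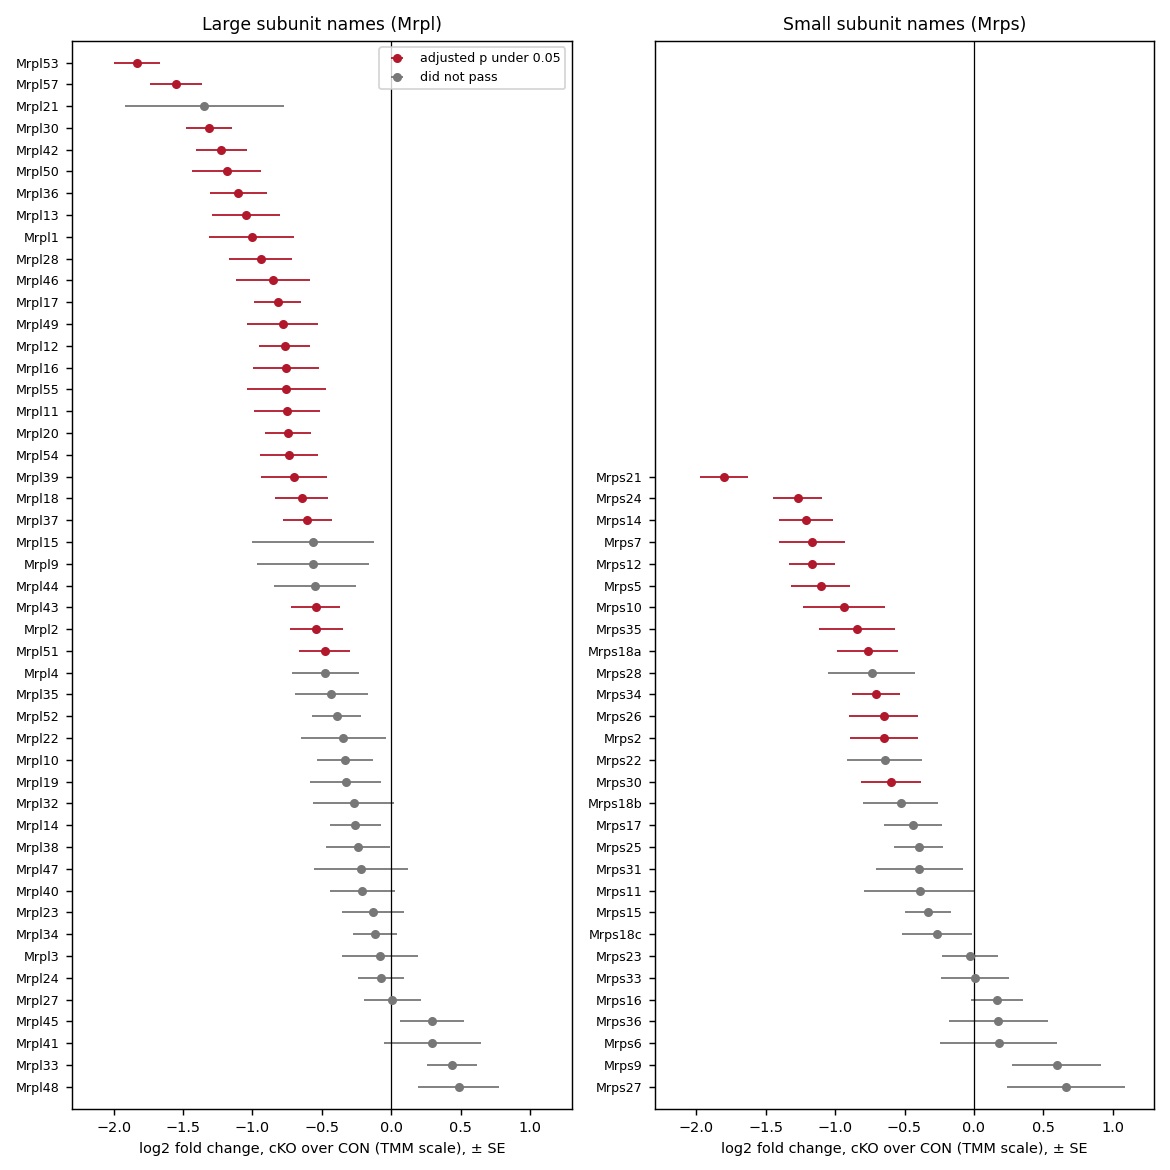
Log2 fold change (cKO over CON, TMM scale, x axis) of each of the 48 Mrpl genes (left panel) and 29 Mrps genes (right panel), sorted from most negative to most positive, with bars of 1 standard error. Red points passed an edgeR adjusted p of 0.05 and grey points did not: 24 Mrpl and 13 Mrps genes are red, and every red point lies left of 0; on library totals all 77 were higher.

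The medians of the 2 subunits lay close together on the TMM scale. Of the Mrpl genes 24 of 48 were lower in cKO, with a median log2 fold change of −0.56, and of the Mrps genes 13 of 29 were lower, with a median of −0.60. Negative values were found for 43 of 48 Mrpl genes and 23 of 29 Mrps genes. A few names do not follow the structure: Mrps18a and Mrps30 encode proteins that sit in the large subunit, and Mrps36 encodes a protein now placed in the 2-oxoglutarate dehydrogenase complex. Sorted by structure, 26 of 50 large subunit genes were lower with a median of −0.56, and 11 of 26 small subunit genes with a median of −0.59. By origin the medians were also close. Of 46 members with a bacterial counterpart 21 were lower (median −0.56), and of 31 mitochondria-specific members 16 were lower (median −0.55). Split by both, the medians were −0.55 for 30 Mrpl genes with a bacterial counterpart, −0.58 for 18 mitochondria-specific Mrpl genes, −0.69 for 16 Mrps genes with a bacterial counterpart and −0.53 for 13 mitochondria-specific Mrps genes. In the last class no member was 2-fold lower, and in the Mrps class with a bacterial counterpart 6 of 16 were. The differences between classes were not tested.

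Summed over the members, the level was 641, 777 and 663 CPM in the cKO libraries, against 1139, 1103 and 1077 CPM in the CON libraries. Every cKO library lay below every CON library, and the second cKO library, with the highest share of digestive enzyme counts, lay nearest to CON. The means were 694 ± 73.2 CPM in cKO and 1106 ± 31.2 CPM in CON (SD, n = 3 each), a ratio of 0.627. The Mrpl genes summed to 470 ± 47.1 CPM in cKO and 727 ± 16.6 CPM in CON, a ratio of 0.647. The Mrps genes summed to 224 ± 26.8 CPM in cKO and 379 ± 16.5 CPM in CON, a ratio of 0.590.

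For each count of an Mrpl gene the cKO libraries held 0.454, 0.482 and 0.489 counts of Mrps genes, and the CON libraries 0.537, 0.507 and 0.519. All cKO values lay below all CON values, by a factor of 0.912 between the means. This difference was gone when 1 gene, Mrps21, was left out. Mrps21 held 8.75 ± 0.165% of the Mrps counts in cKO and 17.9 ± 2.35% in CON (SD, n = 3 each). Without Mrps21, a choice made after seeing the data, the ratio was 0.433 ± 0.0162 in cKO and 0.427 ± 0.00931 in CON, and the groups overlapped. No Mrpl gene was left out, so this step could only raise the cKO ratio relative to CON.

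In single libraries the median member stood below the CON mean by 0.70 log2 units in the first cKO library, by 0.38 in the second and by 0.52 in the third. Below every CON library were 57, 48 and 54 of the 77 members in these cKO libraries, and above every CON library were 6, 6 and 5. The same counts for single libraries were not made over all tested rows, so how far they are particular to the members is not known. The first cKO library, with the lowest share of digestive enzyme counts, was thus farthest from CON and the second nearest. Whether this order follows the enzyme share was not tested.

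**Figure D2:**
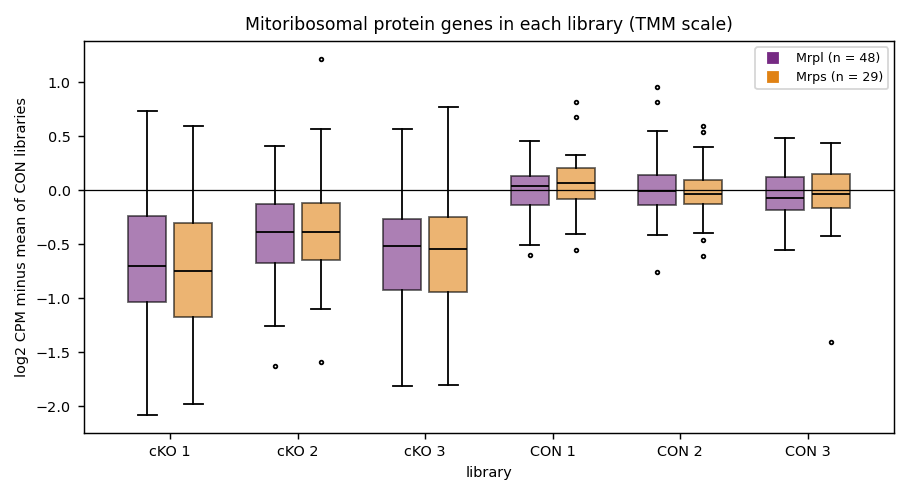
Log2 CPM minus the mean log2 CPM of the CON libraries (y axis, TMM scale) for the 48 Mrpl genes (purple) and 29 Mrps genes (orange) in each library (x axis, the cKO libraries at left). Boxes span the quartiles with the median as a line, whiskers reach up to 1.5 box heights, and dots are genes beyond; both boxes lie below 0 in all cKO libraries, least in cKO 2 (on library totals all members were higher in cKO), and the 2 subunits follow each other in every library.

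The large subunit holds the peptidyl transferase centre and the exit tunnel. Its lowest member relative to CON was Mrpl53 (ENSMUSG00000030037.9), which encodes a mitochondria-specific protein. Mrpl53 had 11.8, 16.2 and 14.3 CPM in the cKO libraries, against 51.5, 52.6 and 46.5 CPM in the CON libraries. The groups lay far apart, with a log2 fold change of −1.83 ± 0.17 (SE, edgeR adjusted p = 1.28e-06). The raw counts were 703, 539 and 857 in cKO and 388, 447 and 366 in CON, so the values do not rest on few reads. Another annotated gene, Gm42688, overlaps the last 500 bases of Mrpl53 on the same strand, so tags of Mrpl53 may be split or shared. Mrpl57, another mitochondria-specific protein, had 7.36, 10.4 and 7.92 CPM in cKO and 26.8, 24.1 and 24.1 CPM in CON. These groups did not overlap either, at a log2 fold change of −1.55 ± 0.19 (SE, edgeR adjusted p = 1.29e-05). Mrpl42, mitochondria-specific as well, had 9.80, 14.5 and 11.98 CPM in cKO and 30.4, 25.5 and 28.6 CPM in CON, with a log2 fold change of −1.22 ± 0.18 (SE, edgeR adjusted p = 8.29e-05). In all 3 genes the second cKO library was the highest of the cKO libraries, and it still lay well below the lowest CON library.

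Among large subunit genes with a bacterial counterpart, Mrpl30 fell furthest of those that passed. It had 13.6, 15.8 and 13.3 CPM in cKO and 38.0, 29.9 and 38.1 CPM in CON, a log2 fold change of −1.31 ± 0.17 (SE, edgeR adjusted p = 2.15e-05). Mrpl36, the counterpart of a very small bacterial protein, had 7.10, 10.7 and 7.80 CPM in cKO and 19.3, 19.7 and 15.9 CPM in CON (log2 fold change −1.10 ± 0.21, SE). In both, the lowest CON library was above the highest cKO library. Mrpl17 averaged 21.1 ± 3.92 CPM in cKO and 37.2 ± 3.03 CPM in CON (SD, n = 3 each), with a log2 fold change of −0.82 ± 0.17 (SE, edgeR adjusted p = 0.00120). Mrpl12 forms the stalk that recruits translation factors and is also known to bind the mitochondrial RNA polymerase. It had 18.4, 24.0 and 14.7 CPM in cKO and 32.7, 33.0 and 31.5 CPM in CON, a log2 fold change of −0.77 ± 0.18 (SE, edgeR adjusted p = 0.00334). The cKO values of Mrpl12 were spread more widely than the CON values and did not reach them. Mrpl50, mitochondria-specific, averaged 4.87 ± 1.33 CPM in cKO and 11.04 ± 1.39 CPM in CON (log2 fold change −1.19 ± 0.25, SE).

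The other large subunit genes that were lower in cKO were Mrpl1, Mrpl2, Mrpl11, Mrpl13, Mrpl16, Mrpl18, Mrpl20, Mrpl28, Mrpl37, Mrpl39, Mrpl43, Mrpl46, Mrpl49, Mrpl51, Mrpl54 and Mrpl55. Their log2 fold changes lay between −1.05 for Mrpl13 and −0.48 for Mrpl51. Mrpl21 had the value −1.35 ± 0.57 (SE, edgeR adjusted p = 0.0680) but rested on 31, 23 and 35 counts in cKO and 15, 7 and 14 counts in CON, and it was not called. Of the 24 uncalled Mrpl genes, 19 had negative values. They reached from −1.35 for Mrpl21 to −0.08 for both Mrpl3, a protein with a bacterial counterpart, and Mrpl24. Beside the genes described next, the uncalled ones were Mrpl4, Mrpl9, Mrpl10, Mrpl14, Mrpl15, Mrpl19, Mrpl22, Mrpl23, Mrpl27, Mrpl32, Mrpl35, Mrpl38, Mrpl40, Mrpl41, Mrpl44, Mrpl47 and Mrpl52, between −0.57 for Mrpl15 and 0.30 for Mrpl41.

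Mrpl34 was the most abundant member in cKO and did not pass the test. It had 45.9, 42.9 and 37.7 CPM in cKO and 51.7, 38.8 and 46.8 CPM in CON, with overlapping groups and a log2 fold change of −0.12 ± 0.16 (SE, edgeR adjusted p = 0.581). In CON it stood close to Mrpl53, at 45.8 ± 6.48 CPM for Mrpl34 and 50.2 ± 3.28 CPM for Mrpl53, while in cKO Mrpl34 averaged 42.2 ± 4.15 CPM and Mrpl53 14.1 ± 2.21 CPM (SD, n = 3 each). A 3' tag library gives about 1 tag per transcript, so these CPM are not divided by length. The large subunit genes with the most positive values were Mrpl48 and Mrpl33. Mrpl33 had 15.6, 16.0 and 17.4 CPM in cKO and 13.2, 12 and 11.04 CPM in CON, groups that did not overlap, with a log2 fold change of 0.44 ± 0.18 (SE, edgeR adjusted p = 0.0567). It missed the threshold here and passed it with DESeq2 (adjusted p = 0.0451). Mrpl48, which has a named pseudogene, had 0.49 ± 0.29 (SE, edgeR adjusted p = 0.192) with overlapping groups. Mrpl45, known to tether the ribosome to the inner membrane, had 0.29 ± 0.23 (SE) and was not called either.

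**Figure D3:**
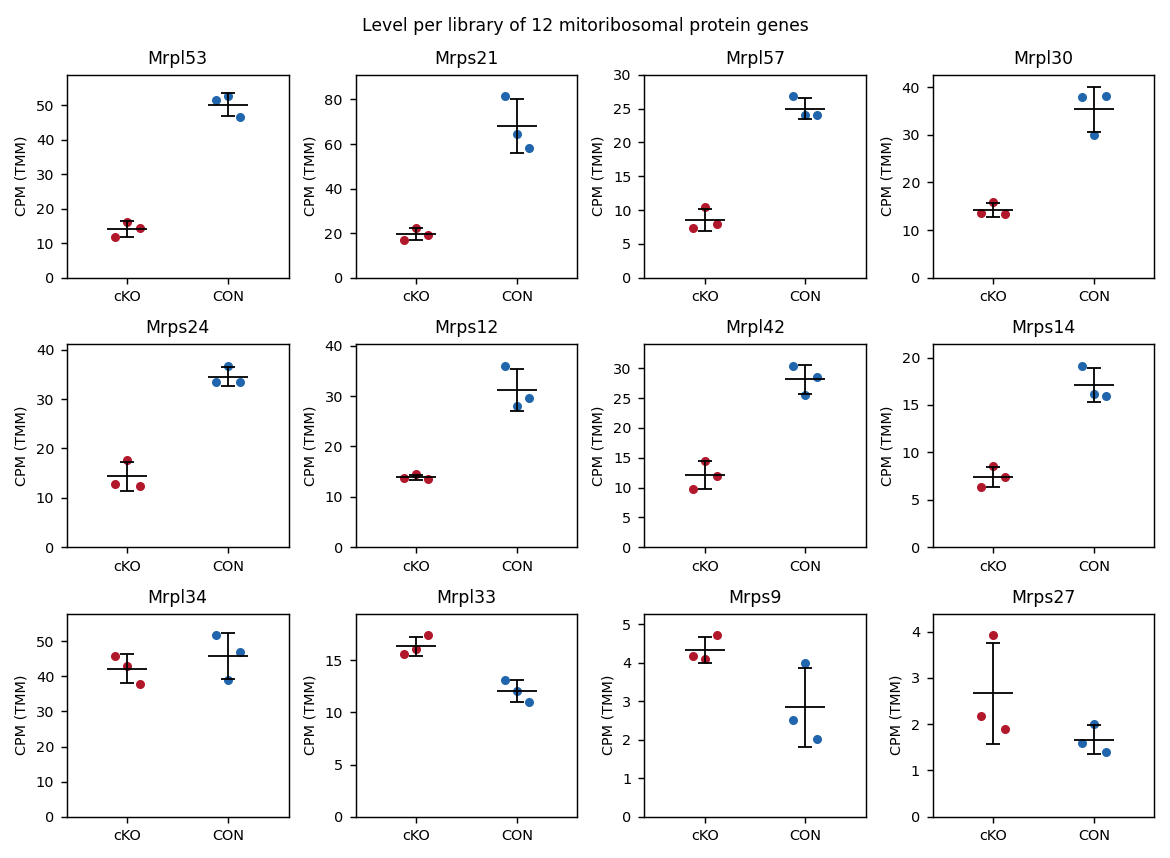
Level in CPM on the TMM scale (y axes, each from 0) of 12 members in each library, cKO in red at left and CON in blue at right, with the mean and SD of 3 libraries in black. The first 8 panels show genes lower in cKO with no overlap; Mrpl34 overlaps, Mrpl33 and Mrps9 have all cKO points above all CON points without passing the test, and Mrps27 overlaps.

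The small subunit binds the mRNA and decodes it. Mrps21, whose product has a bacterial counterpart (S21), was the most abundant member in CON. It had 17.1, 22.3 and 19.3 CPM in the cKO libraries, against 81.4, 64.7 and 58.3 CPM in the CON libraries. The lowest CON library was more than 2-fold above the highest cKO library, with a log2 fold change of −1.80 ± 0.17 (SE, edgeR adjusted p = 2.01e-06). Mrps12, the counterpart of the bacterial decoding centre protein S12, had 13.8, 14.4 and 13.5 CPM in cKO and 36.0, 28.0 and 29.7 CPM in CON. Its cKO libraries were almost equal and all lay below CON, with a log2 fold change of −1.17 ± 0.16 (SE, edgeR adjusted p = 4.90e-05). Mrps24, the counterpart of bacterial S3 at the mRNA entry, had 12.9, 17.6 and 12.5 CPM in cKO and 33.3, 36.7 and 33.4 CPM in CON, a log2 fold change of −1.27 ± 0.18 (SE, edgeR adjusted p = 4.13e-05). Mrps14 had 6.33, 8.53 and 7.37 CPM in cKO and 19.1, 16.1 and 16.0 CPM in CON, a log2 fold change of −1.21 ± 0.20 (SE). None of these groups overlapped.

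Mrps5, the counterpart of a bacterial protein known for its role in accuracy of decoding, averaged 4.98 ± 0.342 CPM in cKO and 10.7 ± 0.396 CPM in CON (SD, n = 3 each; log2 fold change −1.11 ± 0.21, SE). Mrps7 averaged 6.49 ± 1.2 CPM in cKO and 14.5 ± 4.18 CPM in CON (log2 fold change −1.17 ± 0.24, SE). Mrps34, a mitochondria-specific protein, averaged 11.4 ± 1.13 CPM in cKO and 18.5 ± 0.695 CPM in CON (log2 fold change −0.70 ± 0.17, SE). All 3 genes had cKO libraries below all CON libraries, and Mrps7 varied most within CON. The other small subunit names lower in cKO were Mrps2, Mrps10, Mrps26 and Mrps35, between −0.94 for Mrps10 and −0.65 for Mrps2.

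The Mrps18 genes encode proteins related to bacterial S18 that sit in different places. Mrps18c is counted above as the bacterial counterpart, and Mrps18a and Mrps18b, which do not take its place, as mitochondria-specific. Mrps18a, in the large subunit, had 5.32, 5.73 and 4.88 CPM in cKO and 10.1, 8.24 and 8.76 CPM in CON, a log2 fold change of −0.77 ± 0.22 (SE, edgeR adjusted p = 0.0112). Mrps18b, in the small subunit, had −0.53 ± 0.27 (SE, edgeR adjusted p = 0.129) and Mrps18c, also in the small subunit, −0.26 ± 0.25 (SE, edgeR adjusted p = 0.421). Mrps18a passed and the others did not, and the differences between these genes were not tested. Mrps30, in the large subunit despite its name, had −0.60 ± 0.22 (SE, edgeR adjusted p = 0.0363). It was called in only 1 of the 6 fits without 1 library, that without the second cKO library, and in the other 5 its adjusted p lay between 0.0509 and 0.155. It also lost its call without a filter, with a replicate block and with thinned libraries (adjusted p = 0.0724, 0.0616 and 0.0573). The call for Mrps18a was lost without the third cKO library (adjusted p = 0.0643). Mrps36, the dehydrogenase component, had 2.81, 2.17 and 2.82 CPM in cKO and 2.66, 2.0 and 2.28 CPM in CON. With overlapping groups, the log2 fold change came to 0.17 ± 0.36 (SE, edgeR adjusted p = 0.720).

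Mrps15, among the 4 most abundant Mrps genes, did not pass: it had 14.9, 17.1 and 15.4 CPM in cKO and 20.9, 17.9 and 20.9 CPM in CON (log2 fold change −0.33 ± 0.17, SE, edgeR adjusted p = 0.124). The most positive Mrps genes were Mrps27 and Mrps9. Mrps9, with a bacterial counterpart, had 4.17, 4.10 and 4.72 CPM in cKO and 2.52, 4.0 and 2.03 CPM in CON, with a log2 fold change of 0.60 ± 0.32 (SE, edgeR adjusted p = 0.148). The groups of Mrps9 just failed to touch, and without the second CON library its adjusted p was 0.0491. Mrps27, a mitochondria-specific protein that binds RNA, had 0.66 ± 0.42 (SE, edgeR adjusted p = 0.222) and rested on 12, 17 and 11 counts in CON. The remaining uncalled Mrps genes, Mrps6, Mrps11, Mrps16, Mrps17, Mrps22, Mrps23, Mrps25, Mrps28, Mrps31 and Mrps33, lay between −0.74 for Mrps28 and 0.18 for Mrps6.

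The scale sets the sign of these values. Members took 0.251%, 0.152% and 0.243% of all counts in the cKO libraries and 0.0351%, 0.0372% and 0.0369% in the CON libraries, so as a share of all counts they stood higher in cKO, 0.215 ± 0.0550% against 0.0364 ± 0.00114% (SD, n = 3 each). Scaled to library totals, all 77 members were called higher in cKO, with a median log2 fold change of 2.68, but so were 96.4% of all tested rows, whose median was 3.36, and 0.404% were lower. Scaled to the counts outside the digestive enzyme genes, 55 of 77 members were higher and 1, Mrpl53, was lower, against 75% higher and 3.36% lower among all tested rows. The median of the members was then 0.85 and that of all tested rows 1.5. Relative to the median of all tested rows, the median member lay 0.66 log2 units below on the TMM scale, 0.68 below on library totals and 0.65 below without the enzyme genes. A change of library size shifts all rows by about the same amount, so these gaps had to be alike and are no sign of stability. The amount of member mRNA per cell cannot be read from any of the 3 scales.

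**Figure D4:**
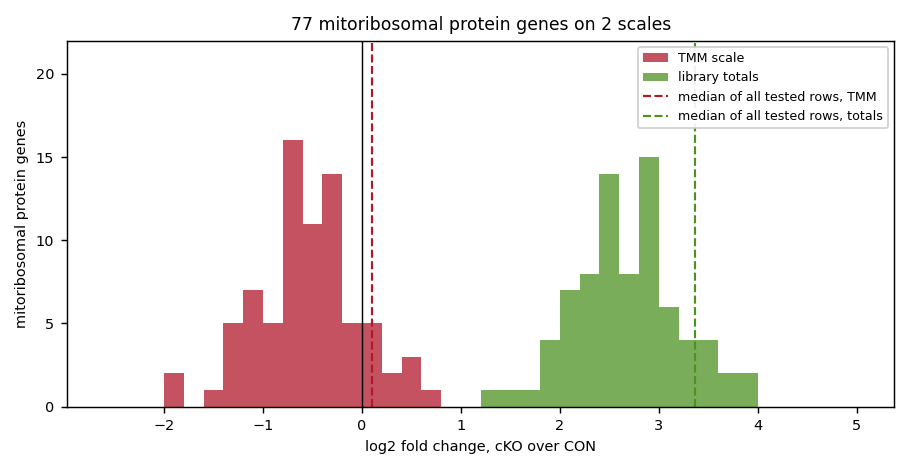
Number of members (y axis) by log2 fold change (cKO over CON, x axis) on the TMM scale (red) and on library totals (green), with the median of all 13132 tested rows as a dashed line in the same colour. The median member lies at −0.56 on the TMM scale, left of the red line at 0.10, and at 2.68 on library totals, left of the green line at 3.36.

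The other genes of mitochondrial translation gave a mixed picture on the TMM scale. On library totals, 6 of 6 further subunits, 27 of 28 assembly genes and 20 of 20 translation factors were higher, as were most rows. On the TMM scale, of 6 ribosome subunits with names outside the pattern, 4 were lower and 0 higher (median −0.70). Aurkaip1 encodes a small subunit protein and averaged 16.2 ± 3.73 CPM in cKO and 39.9 ± 5.18 CPM in CON (SD, n = 3 each; log2 fold change −1.30 ± 0.19, SE). Gadd45gip1, of the large subunit, had −0.83 ± 0.19 (SE), Chchd1, of the small subunit, −0.77 ± 0.18 (SE) and Ict1, a peptidyl-tRNA hydrolase built into the large subunit, −0.62 ± 0.18 (SE). Dap3, a GTP-binding protein of the small subunit, had 0.40 ± 0.21 (SE, edgeR adjusted p = 0.140) and was not called. Neither was Ptcd3, an RNA-binding small subunit protein (−0.34 ± 0.31, SE).

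Of 28 genes for assembly and rRNA modification, 5 were lower and 1 higher (median −0.48), a share of lower genes near that of all tested rows. The higher gene was Mterf4, which guides an rRNA methyltransferase during assembly. It had 22.1, 14.1 and 26.1 CPM in cKO and 4.25, 5.53 and 5.97 CPM in CON, far apart, with a log2 fold change of 1.98 ± 0.25 (SE, edgeR adjusted p = 1.99e-05). Noa1, a GTPase of small subunit assembly, averaged 1.84 ± 0.547 CPM in cKO and 4.47 ± 1.91 CPM in CON (log2 fold change −1.30 ± 0.39, SE). Rpusd3, a pseudouridine synthase, had only 15, 3 and 13 counts in cKO and 12, 3 and 13 counts in CON, so its value of −2.59 ± 0.73 (SE) rests on few reads. Noa1 was not called without the third cKO library (edgeR adjusted p = 0.0617) or the second CON library (edgeR adjusted p = 0.106). The other 3 lower genes were Fastkd2, Mpv17l2 and Mtg1, at −1.12, −0.62 and −1.12. The count of lower genes in this list was 3 without the first cKO library, 0 without the third cKO library and 2 without the third CON library. Mterf4 kept a log2 fold change of at least 1.79 in these fits.

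Of 20 translation factors and helpers, 5 were lower and 1 higher (median −0.37), again a share of lower genes near the 20.7% of all tested rows. Lrpprc, which stabilises mitochondrial mRNAs, averaged 14.95 ± 4.17 CPM in cKO and 32.6 ± 2.67 CPM in CON (log2 fold change −1.13 ± 0.20, SE). Slirp, its partner, had 0.41 ± 0.17 (SE, edgeR adjusted p = 0.0616) and did not pass. Pdf, the deformylase that trims new peptides, had −1.12 ± 0.20 (SE) and Letm1, an inner membrane protein, −0.93 ± 0.20 (SE). The elongation factor Gfm1 was lower (−1.30 ± 0.33, SE, edgeR adjusted p = 0.00480) and the recycling factor Gfm2 higher (0.84 ± 0.29, SE, edgeR adjusted p = 0.0276). The initiation factor Mtif3 was also lower (−0.80 ± 0.26, SE), with overlapping groups.

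Among ERR family and partner genes, 1 of 7 tested was lower (14.3%) and 1 higher. These shares were below those of all tested rows, 20.7% lower and 24% higher. Ppargc1a, the PGC-1 alpha coactivator, had 0, 9 and 11 counts in cKO and 7, 26 and 12 counts in CON (log2 fold change −3.67 ± 0.90, SE, edgeR adjusted p = 0.00427). Its raw counts are low and overlap. On library totals it still had a negative value, −0.59, and was not called (edgeR adjusted p = 0.466). Nrf1, the factor of the element searched above, had 5.47, 3.92 and 3.87 CPM in cKO and 1.99, 2.24 and 2.54 CPM in CON (log2 fold change 0.97 ± 0.32, SE, edgeR adjusted p = 0.0239). Nrf1 no longer passed in 4 of the 6 fits without 1 library, with adjusted p between 0.0515 and 0.131 in those 4. Esrra, which encodes the related receptor ERRalpha, averaged 20.4 ± 2.31 CPM in cKO and 18.6 ± 0.835 CPM in CON and was not called.

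Cytosolic ribosomal proteins and nuclear respiratory chain subunits were lower more widely on the TMM scale, and higher on library totals (83 of 83 and 78 of 79). Of 83 tested cytosolic ribosomal protein genes 78 were lower and 0 higher (median −1.11), and of 79 tested respiratory chain genes 72 were lower and 2 higher (median −1.08). The median of the mitochondrial ribosomal protein genes lay about midway between these and that of all tested rows. No test was made between these lists.

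**Figure D5:**
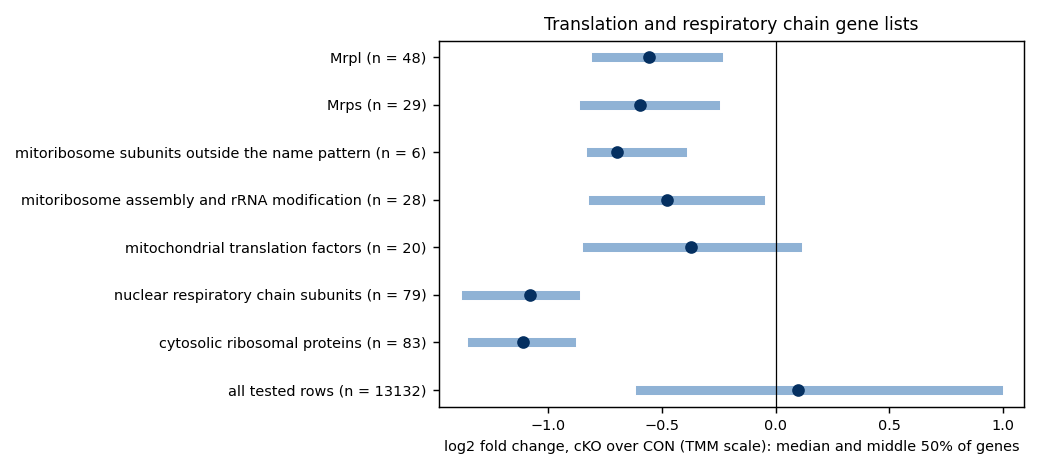
Median (dot) and range between the quartiles (bar) of the log2 fold change (cKO over CON, TMM scale, x axis) for each gene list (rows, n tested genes in brackets) and for all tested rows at the bottom. The Mrpl and Mrps medians lie at −0.56 and −0.60, between those of cytosolic ribosomal protein and respiratory chain genes near −1.1 and all tested rows at 0.10; on library totals all these lists were mostly higher in cKO.

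Short transcripts were lower in cKO more often than long ones in general, and most members are short. The median transcript length was 1288 bases over the members and 2993 bases over 12013 tested genes with a length. Between 1000 and 1500 bases, 27.5% of 1137 tested genes were lower (median −0.09), and 10 of the 22 members in that class were (median −0.55). Between 600 and 800 bases, 41.2% of 233 genes were lower (median −0.35), and 4 of 13 members were (median −0.27). Between 800 and 1000 bases, 39.0% of 349 genes were lower (median −0.35), and 7 of 9 members were (median −0.77). Below 600 bases the shares were 44.1% of 143 genes and 1 of 3 members. From 1500 to 2500 bases, 21.5% of genes and 5 of 10 members were lower. From 2500 to 4000 bases these were 19.0% and 6 of 11, and above that 16.3% and 4 of 9. Among the members themselves the log2 fold change did not follow length (Pearson r = 0.03 across 77 genes). It was lower in genes with a higher mean level (Pearson r = −0.35), about as in all tested genes (r = −0.34). These are descriptions across genes that share the same 6 libraries.

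The members lie on 17 chromosomes, with the highest numbers on 11 (10 genes) and 17 (8 genes). A protein-coding gene started on the opposite strand within 1000 bases of the start of 26 members (33.8%), against 11.7% of 12013 tested genes. Of the 23 such partners that were tested, 8 were lower, 1 higher and 14 not called, where 20.7% of all tested rows were lower. Of the 12 members that were lower and had a tested partner, 3 had a lower partner: Mrpl18 with Tcp1, Mrpl37 with Cyb5rl and Mrps34 with Eme2. Other pairs differed in value. Mrpl57 had −1.55 and its partner Ska3, a spindle protein, 1.33 without a call; Mrpl47 had −0.22 without a call and its partner Ndufb5, a complex I subunit, was lower at −1.57. Mrpl51 was lower at −0.48 and its partner Ncapd2, a condensin subunit, higher at 1.63. Mrpl46 and Mrps11, a pair of members whose starts are 30 bases apart, had −0.85 (lower) and −0.39 (not called). Another annotated gene overlapped the last 500 bases of 14 members, on the same strand in 5, among them Mrpl53 and Mrpl33, so their tags may be split or shared. On the opposite strand it did so for Mrpl10, Mrpl12, Mrpl19, Mrpl24, Mrpl49, Mrps7, Mrps18b, Mrps25 and Mrps34, whose counts could hold reads of the neighbour if strand was not used.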

How the data were processed

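Each library came with a table, deposited by the authors, of raw read counts by gene symbol, made from 3' tags (Lexogen QuantSeq, per the labels' protocols). The submitters' processing notes name Bowtie2, edgeR, mm10 and GRCm38. Which tool and annotation gave the counts, and how strand and multiply mapped reads were handled, is not given in the sources used here. Such counts depend little on length but do depend on the annotated 3' end.

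Counts of 23282 rows were fitted with the edgeR 4.0.16 quasi-likelihood test in R 4.3.3 (rows kept by filterByExpr with a count of 10 and a total of 15 as minima, TMM factors, robust fit, 2 groups), with Benjamini-Hochberg adjustment over 13132 tested rows. CPM are per M of TMM-scaled library size, on average 50.9 M in cKO and 7.97 M in CON. A median member had 246 to 401 counts in cKO libraries and 76 to 84 in CON libraries, so CON values carry more counting error. Each SE is the fold change divided by the square root of F. The test was also run on simulated counts. Few genes changed in them and both groups shared the CON make-up, so that run cannot check the choice of scale. Replicates differed beyond sampling noise in every pair (chi-square per degree of freedom 14.6 to 370). Same-numbered libraries were not treated as pairs in the main fit. Their deviations from the group means had correlations of 0.01, −0.03 and −0.01, which cannot show whether they were prepared together.

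Alternatives were other factors, library totals, enzyme-free sizes, other filters, DESeq2 1.42.0, a replicate block, thinned libraries, summed rows and leaving out each library. Members, roles and gene lists were chosen with earlier results of these data known. Members were named by p-value, level, fold change or place in the ribosome, and others to account for every member. Some were chosen after their values were seen. Coordinates come from GENCODE M21 (GRCm38), promoters from RefSeq (GRCm38.p6).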

Additional observations from a re-analysis of the deposited data

How the results depend on the processing

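The count of members lower in cKO was 36 with RLE factors, 35 with upper quartile factors, 33 without a filter, 37 with DESeq2 (36 of them shared), 30 with thinned libraries and 37 with rows summed per symbol. A filter of at least 10 CPM in 3 libraries kept 35 members, of which 15 were lower, 8 Mrpl and 7 Mrps, against 33.9% of all rows tested under it. With a replicate block, which treats same-numbered libraries as pairs, 34 members were lower, all among the 37. Leaving out 1 library gave 20 to 39 members lower, 13 to 25 for Mrpl and 7 to 14 for Mrps; the low counts came without the first cKO library (23, 15 and 8) and without the third (20, 13 and 7). The Mrpl median then lay between −0.60 and −0.50 and the Mrps median between −0.69 and −0.46. One member was higher with upper quartile factors, with the 10 CPM filter and with DESeq2 (Mrpl33 each time), and with thinned libraries and without the second CON library (Mrps9 both times), for a range of 0 to 1 without 1 library. All tested rows with a call numbered 5869, and 12706 on library totals, 9900 on enzyme-free sizes, 2862 with the 10 CPM filter and 4465 to 6240 without 1 library. On library totals 0 members were lower and 77 higher, with medians of 2.69 (Mrpl) and 2.64 (Mrps). On enzyme-free sizes 1 member was lower (1 Mrpl, 0 Mrps) and 55 higher, with medians of 0.86 (Mrpl) and 0.82 (Mrps). Log2 fold changes that turned positive on library totals were 2.44 (Mrpl12), 2.40 (Mrpl17), 1.93 (Mrpl30), 3.16 (Mrpl34), 2.10 (Mrpl36), 1.99 (Mrpl42), 2.01 (Mrpl50), 1.40 (Mrpl53), 1.66 (Mrpl57), 2.10 (Mrps12), 2.02 (Mrps14), 2.92 (Mrps15), 2.49 (Mrps18a), 2.68 (Mrps18b), 2.99 (Mrps18c), 1.44 (Mrps21), 1.94 (Mrps24), 2.63 (Mrps30), 2.54 (Mrps34), 2.15 (Mrps5), 2.04 (Mrps7), 1.91 (Aurkaip1), 2.37 (Gadd45gip1), 2.43 (Chchd1), 0.73 (Rpusd3), 1.89 (Noa1), 2.06 (Lrpprc), 2.11 (Pdf), 2.31 (Letm1) and 2.47 (Ppargc1b). Those that turned positive on enzyme-free sizes were 0.64 (Mrpl12), 0.59 (Mrpl17), 0.11 (Mrpl30), 1.31 (Mrpl34), 0.31 (Mrpl36), 0.19 (Mrpl42), 0.23 (Mrpl50), 0.26 (Mrps12), 0.21 (Mrps14), 1.09 (Mrps15), 0.66 (Mrps18a), 0.89 (Mrps18b), 1.16 (Mrps18c), 0.14 (Mrps24), 0.82 (Mrps30), 0.72 (Mrps34), 0.33 (Mrps5), 0.25 (Mrps7), 0.11 (Aurkaip1), 0.58 (Gadd45gip1), 0.64 (Chchd1), 0.10 (Noa1), 0.28 (Lrpprc), 0.30 (Pdf) and 0.49 (Letm1). The cause was not tested; the median of all tested rows moved too, to 3.36 and 1.5. Lower in every setting but these 2 were 15 members: Mrpl12, Mrpl17, Mrpl20, Mrpl30, Mrpl36, Mrpl42, Mrpl53, Mrpl57, Mrps5, Mrps7, Mrps12, Mrps14, Mrps21, Mrps24 and Mrps34. Members removed by the 10 CPM filter could not be among them. Of those, Mrpl13, Mrpl28 and Mrpl50 were lower in all the remaining settings. With 76 to 84 counts for a median member per CON library, small differences could not be resolved. The factor of 0.912 for Mrps over Mrpl counts became 1.01 without Mrps21.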
